A study of Mus musculus with 3 samples.

Results

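Bile acid synthesis and sterol export were followed in mouse liver through 10 genes, read by 13 probe sets of an Affymetrix expression array. The genes encode the enzymes Cyp7a1, Cyp8b1, Cyp7b1 and Cyp27a1, the bile salt pump Abcb11, the nuclear receptors Nr1h4 and Nr0b2, and the sterol transporters Abcg5, Abcg8 and Abca1. The rule that picks them is a list of probe set IDs. All 13 named IDs were present, each had a value on every array, and the platform annotation gave each the expected single gene. The deposited ratio table covers 19824 probe sets without the manufacturer's controls, of which 17502 had 1 gene symbol, for 10526 genes in all.

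The livers were from female mice of BALB/c, an inbred strain, in 3 groups with 1 array each. Young control mice were 10 weeks old and old control mice 50 weeks old, both on normal food. Old Chlorella mice were 50 weeks old and ate food with 2.0% powder of Chlorella, a green alga. Each group's RNA was a pool of 6 mice, so an array shows the mean of a pool and not the variation between mice. The series title names sensitization to ovalbumin, but no sample label mentions it. The length of feeding, the hour of sampling and whether the mice had been fasted were not given in the sources used here. Every difference below is between 2 pools, with no replicate and therefore no error, test or p-value. In whole liver, fewer cells of a type and less RNA per cell cannot be told apart.

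The liver disposes of cholesterol by turning it into bile acids and by pumping it into bile. In the classic route Cyp7a1, the 7-alpha-hydroxylase of cholesterol, sets the rate, and Cyp8b1 adds the hydroxyl group that makes cholic acid. In the alternative route Cyp27a1 oxidises the sterol side chain and Cyp7b1 hydroxylates the resulting oxysterols. Bile acids bind the receptor FXR (gene Nr1h4), which induces Nr0b2, known as SHP, and the pump Abcb11. SHP is a repressor that lowers Cyp7a1 and Cyp8b1 and thus closes a feedback loop. The loop is completed by a signal from the gut, Fgf15, received in liver by Fgfr4 with Klb. Abcg5 and Abcg8 form 1 heterodimer that moves sterols into bile, and Abca1 loads cholesterol onto HDL. Cyp7a1 is also known for a strong daily rhythm and for its response to food in mouse liver.

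The start sites of Abcg8 and Abcg5 lie 110 bases apart on opposite strands, and their promoter windows share 209 bases, which is why this sequence is shown beside the values of both genes. Promoters, from 250 bases before to 50 after a start site, were taken from RefSeq on GRCm38.p6, a genome of C57BL/6J and not of BALB/c. Of the 10 genes, 8 had at least 1 promoter there, and Cyp7a1 and Cyp7b1 did not. The Abcg8 window is chr17:84682871-84683170 on the plus strand (a second listed Abcg8 start was set aside). Capitals mark AGATAA on either strand, the motif of GATA factors, which in human act on the region between these genes. Abcb11 is shown for a match to the inverted repeat bound by FXR, in chr2:69342567-69342866 on the minus strand. Capitals there mark AGGTCA followed by any base and then TGACCT, with at most 1 mismatch, on either strand. Cyp8b1, at chr9:121916256-121916555 on the minus strand, is shown as the synthesis enzyme with the largest age difference. Its capitals mark CAAGGNC, a monomer site of the kind bound by LRH-1 (gene Nr5a2), on either strand.
Abcg8: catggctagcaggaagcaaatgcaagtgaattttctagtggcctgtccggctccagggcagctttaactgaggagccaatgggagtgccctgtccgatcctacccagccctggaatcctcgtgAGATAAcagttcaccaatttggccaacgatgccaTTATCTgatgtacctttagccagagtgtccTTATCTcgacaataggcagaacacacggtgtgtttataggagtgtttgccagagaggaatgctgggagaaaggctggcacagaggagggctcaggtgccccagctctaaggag
Abcb11: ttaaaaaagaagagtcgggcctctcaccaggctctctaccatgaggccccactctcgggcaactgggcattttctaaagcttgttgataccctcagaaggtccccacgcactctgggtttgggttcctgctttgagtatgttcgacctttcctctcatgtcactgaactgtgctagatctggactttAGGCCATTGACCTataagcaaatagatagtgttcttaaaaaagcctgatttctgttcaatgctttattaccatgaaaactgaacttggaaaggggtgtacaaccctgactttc
Cyp8b1: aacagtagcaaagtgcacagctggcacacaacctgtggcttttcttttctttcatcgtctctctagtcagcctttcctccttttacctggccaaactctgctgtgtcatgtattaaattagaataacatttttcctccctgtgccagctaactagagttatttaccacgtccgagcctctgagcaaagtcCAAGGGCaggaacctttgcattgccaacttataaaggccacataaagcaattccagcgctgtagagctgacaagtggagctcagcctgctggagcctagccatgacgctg

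The shared Abcg5 and Abcg8 stretch held 3 AGATAA matches, at -127, -93 and -63 from the Abcg8 start (first base of each). AGATAA also matched in the Nr1h4 promoter, at -131 to -126, and was found in 11.2% of the 32851 promoters of the table. The FXR repeat matched at -63 to -51 in the Abcb11 promoter and in 27 promoters of the table (0.0822%). No other member promoter held it within the 300 bases. CAAGGNC matched in Cyp8b1 at -60 to -54 and in Nr0b2 at -201 to -195, and in 17.8% of all promoters. These motifs were chosen with the sequences known. A match is a string of letters and was not tested for binding.

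The deposited values are log2 expression per probe set, and levels of different probe sets cannot be compared. Both deposited tables gave the same differences between arrays within 0.001 on the log2 scale. As a check of the tissue, the albumin gene Alb, made by hepatocytes, read 15.32 (log2 expression) in young control, 15.79 in old control and 15.71 in old Chlorella. Krt7, Krt19 and Epcam, markers of bile ducts, were outside the ratio table. In the age comparison all 42 bacterial control probe sets, added RNAs or labelled transcripts, were higher in old control (median 0.456 for hybridization and 0.749 for poly-A controls, log2). For beta-actin, Gapdh and pyruvate carboxylase the difference at the 5′ end minus that at the 3′ end was -0.38, -0.22 and -1.79 in the same comparison, and -0.02, 0.05 and -0.08 by diet. The part of these shifts in the results below was not tested.

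The first comparison asked how these genes differed with age on normal food. Nr0b2, Cyp8b1 and Abcg8 were lower in the old control pool by at least 2-fold, and no member was 2-fold higher. Thus 3 of 13 probe sets passed 2-fold, or 23.1%, against 18.3% of all 16667 probe sets compared. In the downward direction alone the 3 stand against a background of 8.8%. Smaller differences ran the same way: 12 of 13 members were lower in old control, with a median of -0.829 (log2). Of all probe sets 55.8% were lower and their median was -0.114. Among probe sets within the members' range of mean level, 61.5% were lower and the median was -0.219. At 1.5-fold, 8 members were lower, against 24.2% of all probe sets, and 1 was higher, against 19.6%.

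Among the synthesis enzymes, Cyp8b1 stood at 12.56 (log2 expression) in young control, 11.33 in old control and 11.78 in old Chlorella. Young control was highest and old control lowest, a difference by age of -1.22 (log2; 2.33-fold). Only 4.48% of all probe sets lay further down in this comparison. Cyp7b1 was read by 2 probe sets that gave 11.87 and 10.88 in young control, 10.99 and 10.13 in old control, and 11.33 and 10.67 in old Chlorella. Both put young control first, old Chlorella next and old control last. The age difference of Cyp7b1 was -0.888 and -0.746 (1.85- and 1.68-fold). Cyp27a1 stood at 13.21 in young control, 12.38 in old control and 12.22 in old Chlorella, so both old pools lay below the young one and close to each other. It was lower by age, at -0.829 (1.78-fold).

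For Cyp7a1, the enzyme that opens the classic route, the probe sets disagreed by age. Probe set 1422100_at read 10.22 in young control, 9.66 in old control and 10.46 in old Chlorella. By this one Cyp7a1 was lower in old control, at -0.564 (1.48-fold). Probe set 1438743_at read 11.37, 12.15 and 12.91 in the same order. By that one it was higher in old control, by 0.771 (1.71-fold). The age direction of Cyp7a1 is therefore not settled by these arrays. The gap of 1.34 between the probe sets was large even for this table: among 2229 genes with exactly 2 fully measured probe sets, the median gap by age was 0.327, and 4.76% had a gap at least as wide. The probe sets of Cyp7b1 differed by 0.142 and the Abca1 probe sets in the rule by 0.497 (Abca1, with a further probe set, is not among the 2229). Opposite signs by age were seen in 24.1% of the 2229 genes.

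**Figure D1:**
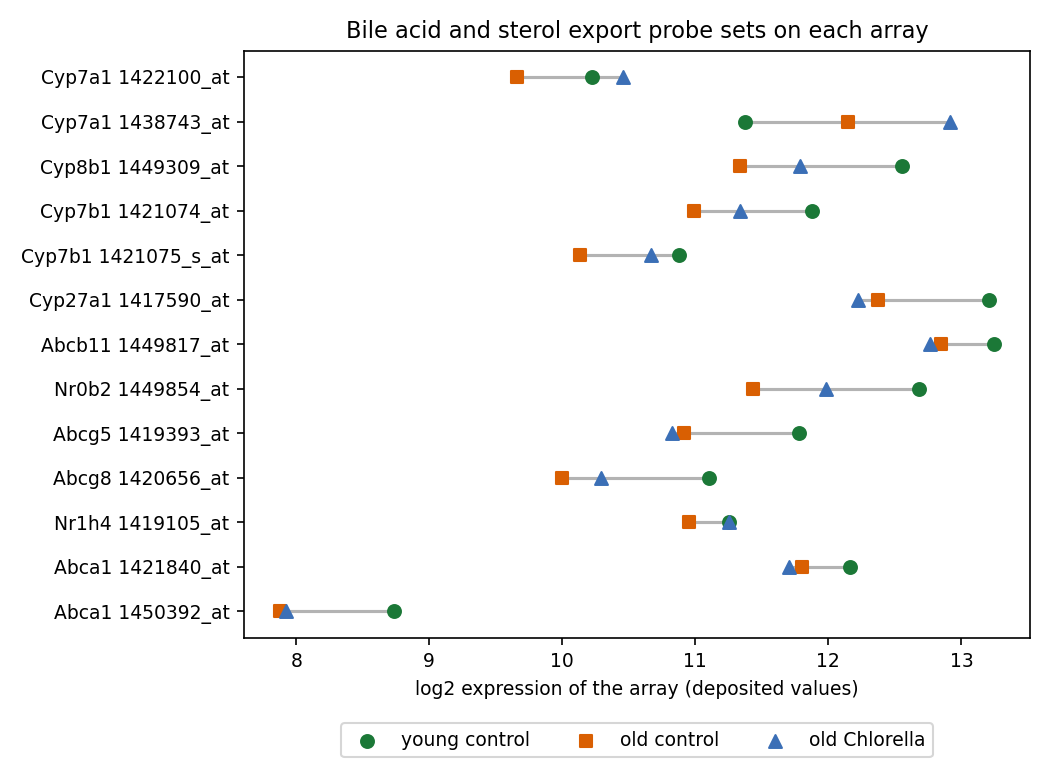
The log2 expression (horizontal axis) of each of the 13 probe sets (rows) in young control (circles), old control (squares) and old Chlorella (triangles), 1 array of pooled liver RNA each. Levels compare only within a row: young control was highest in 11 of 13 rows (in Nr1h4 level with old Chlorella), and the Cyp7a1 rows place young control differently.

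The receptors of the feedback loop came next. Nr0b2, the repressor SHP, stood at 12.68 in young control, 11.43 in old control and 11.99 in old Chlorella. It had the largest age difference of the 13 members, -1.25 (log2; 2.38-fold), with 4.16% of all probe sets further down. Nr1h4, the bile acid receptor FXR, differed less: 11.25 in young control, 10.95 in old control and 11.25 in old Chlorella, an age difference of -0.306 (1.24-fold). For Nr1h4 the young and the Chlorella pool were equal to 3 decimals. The pump Abcb11, which exports bile salts into the canaliculus and whose promoter held the FXR repeat, read 13.25 in young control, 12.84 in old control and 12.76 in old Chlorella. Its age difference was -0.401 (1.32-fold). Of these FXR-linked genes Nr0b2 thus passed 2-fold and Abcb11 did not.

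The sterol transporters were lower by age in each probe set. Abcg8 read 11.10 in young control, 9.999 in old control and 10.29 in old Chlorella, with an age difference of -1.10 (2.15-fold). Its partner Abcg5, which starts from the other strand of the stretch printed above, read 11.78, 10.92 and 10.82, with an age difference of -0.858 (1.81-fold). Both subunits were highest in young control. Abca1 gave 12.16, 11.80 and 11.70 on 1421840_at, and 8.73, 7.88 and 7.92 on 1450392_at. The age differences of Abca1 were -0.359 and -0.856 (1.28- and 1.81-fold). A further Abca1 probe set of the ratio table, 1421839_at, is not named by the rule and differed by -0.72 (log2). Other probe sets of Cyp7b1 (1446995_at) and Cyp27a1 (1457665_x_at) were absent from the ratio table. The Cyp27a1 one was listed at 0 in young control, so no fold is given for it.

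All 13 age directions stayed the same under each of 6 other scalings of the arrays. The sizes did not: Nr0b2 ranged from -2.00 to -1.18, Cyp8b1 from -1.97 to -1.02, Abcg8 from -1.85 to -0.832, and the higher Cyp7a1 probe set from 0.02 to 0.843. Shifts to either kind of bacterial control lowered every age difference, so they could not turn a lower member higher. Putting array medians at 0 moved all members by the same small amount, too little to turn any of them. Markers of other cell types differed by age as well, in both directions. Over all probe sets of a list, the summed level (log2) of 5 Kupffer cell and macrophage markers was 13.00 in young control, 13.77 in old control and 13.82 in old Chlorella. In the same order the sum for 4 endothelial markers was 13.05, 13.84 and 13.69, set mostly by Clec4g (12.52, 13.67 and 13.51). Stab2 (10.74, 9.99 and 9.88) and Pecam1 (8.54, 8.07 and 8.04) were lower in both old pools. For 3 lymphocyte markers on the array the sum was 8.51, 10.72 and 10.19, set mostly by Ms4a1 (2.906 and 3.301 higher by age on its probe sets, log2). Cd79a differed less (7.32, 8.33 and 7.72). Cd3e, outside the ratio table, was not higher in either old pool (5.54 in young control and 5.46 in old control). For 5 hepatocyte markers the sum was 18.26, 18.58 and 18.52, and for 4 bile duct markers 8.68, 8.58 and 8.76. Stellate cell markers, 4 in all, summed to 11.74, 11.81 and 11.79. Among them Lrat was higher by age on both probe sets (0.609 and 0.89, log2), while Reln 1449465_at was lower (-0.378). The hepatocyte markers did not move together: Alb, Apoa2 and Ttr were higher in both old pools. Tat (13.88, 13.26 and 12.37) and Fgb (15.52, 15.14 and 15.25) were lower in both. The bile duct probe set in the ratio table, of Sox9, was higher in old control by 1.09 (log2). Other Sox9 probe sets, outside the ratio table, did not share this. In the same order 1424950_at read 6.34, 2.27 and 5.09, and 1433889_at read 5.02, 5.17 and 5.41. For 3 enterocyte markers the sum was 13.67, 15.06 and 14.99, nearly all of it Fabp2. For 3 markers of exocrine pancreas it was 12.69, 13.21 and 12.94, nearly all of it Cela1. None of the other markers on these lists was higher in both old pools, and all were outside the ratio table. They were Fgf15 (5.79, 2.06 and 4.50), Vil1 (4.54, 5.71 and 1.38), Cpa1 (5.84, 2.47 and 3.27) and Pnliprp1 (2.64, 3.68 and 1.49). The adipocyte marker on the array, Adipoq, read 5.89, 4.76 and 4.22. No marker was listed at 0. Their part in the age differences was not tested.

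The second comparison asked how the livers of 50-week-old mice differed with Chlorella in the food. No member differed by 2-fold between old Chlorella and old control, where 1.52% of all 16524 probe sets did (0.841% upward). Both probe sets of Cyp7a1 were higher in old Chlorella, by 0.799 and 0.766 (log2; 1.74- and 1.70-fold). These were the only 2 members past 1.5-fold, a size that 4.55% of all probe sets reached upward and 4.1% downward. Among all probe sets 1.92% and 2.22% lay above the Cyp7a1 values. Unlike by age, the Cyp7a1 probe sets gave nearly the same difference, with a gap of 0.033 where the median over 2229 genes was 0.224.

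**Figure D2:**
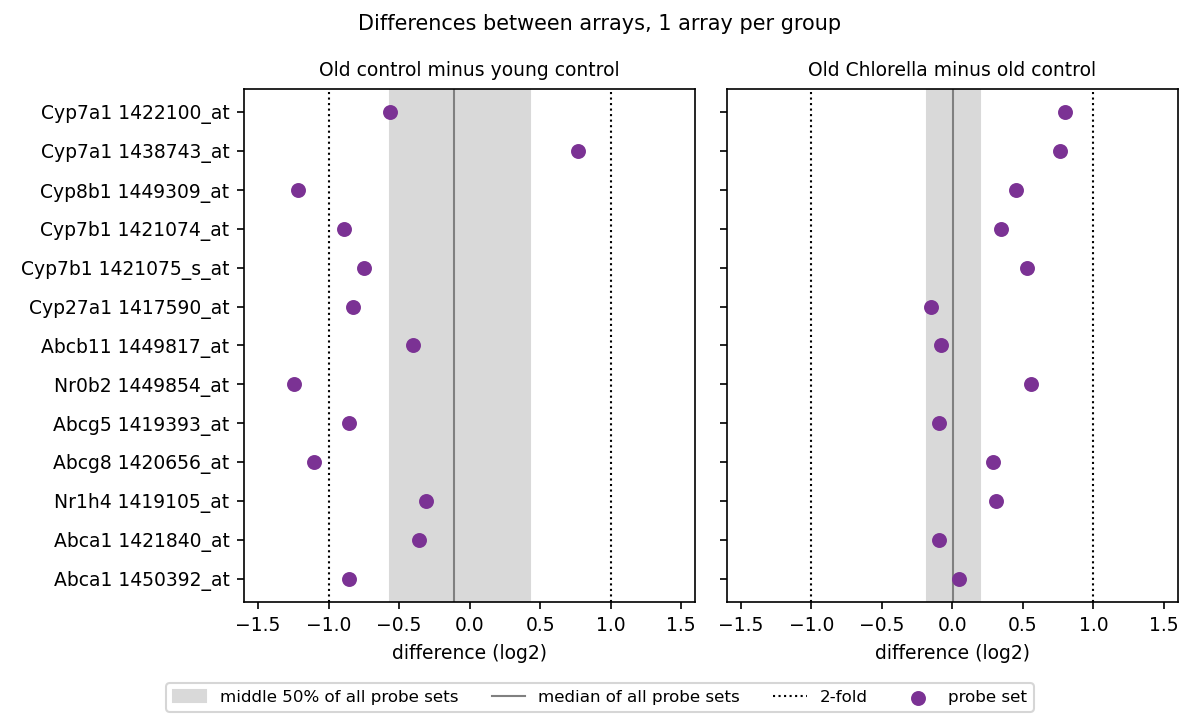
Differences between arrays (log2, horizontal axes) for the 13 probe sets (rows), by age on the left and by diet on the right. The grey band holds the middle 50% of all probe sets, the grey line is their median, and dotted lines mark 2-fold. By age 12 of 13 points lie left of 0, and by diet the Cyp7a1 points lie furthest right.

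**Figure D3:**
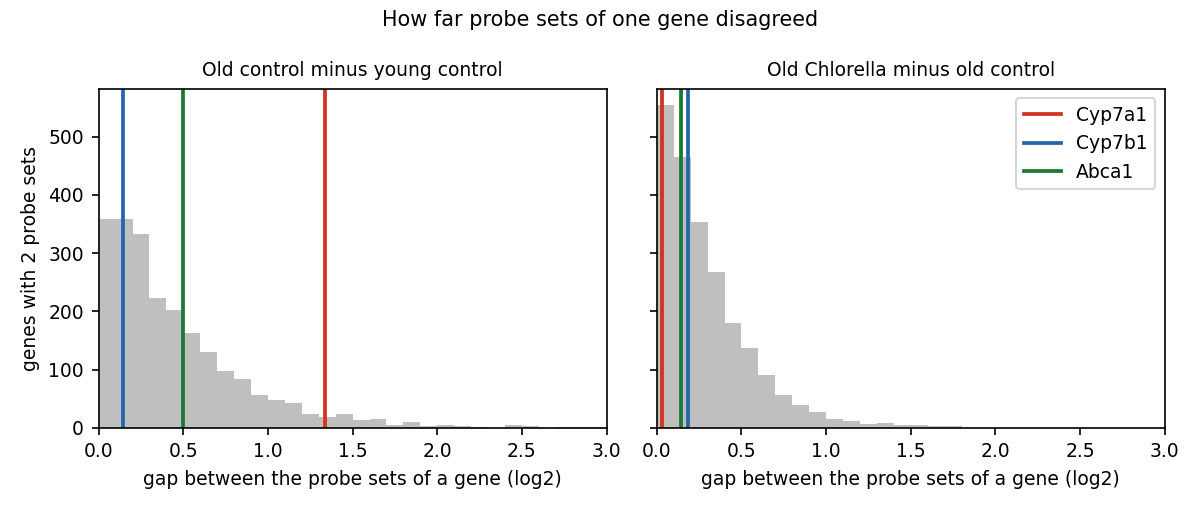
Histograms of the absolute gap between the probe sets of a gene (log2, horizontal axes) over 2229 genes with 2 fully measured probe sets, by age on the left and by diet on the right. Vertical lines give Cyp7a1 (1.34 by age, 0.033 by diet), Cyp7b1 (0.142 and 0.184) and Abca1 (0.497 and 0.142).

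Several other members were somewhat higher with Chlorella. The difference by diet was 0.555 (1.47-fold) for Nr0b2, 0.449 (1.37-fold) for Cyp8b1, and 0.531 and 0.347 for Cyp7b1. Nr1h4 and Abcg8 differed by 0.306 and 0.289. Values near 0 were seen for Abcb11 (-0.08), Abcg5 (-0.1), Cyp27a1 (-0.15) and both Abca1 probe sets of the rule (-0.1 and 0.044). The further Abca1 probe set outside the rule, 1421839_at, differed by 0.398 by diet. Together 9 of 13 members were above 0, with a median of 0.306, whereas 50.4% of all probe sets were above 0 with a median of 0.003. The subunits Abcg5 and Abcg8, both lower by age, thus had diet differences of opposite sign, each well under 1.5-fold. Under the 6 other scalings 8 of the 13 diet directions stayed the same, those of Cyp7a1, Cyp8b1, Cyp7b1, Nr0b2, Abcg8 and Nr1h4. Abcb11, Abcg5, Cyp27a1 and Abca1 1421840_at turned positive when arrays were shifted to either kind of bacterial control, and Abca1 1450392_at turned slightly negative with quantile normalized values.

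The age and the diet comparison share the old control array, so a high or low reading there moves both in opposite directions. Old control was the lowest of the 3 arrays for 8 of 13 members and for 35.3% of the 15735 probe sets with 3 values. Old Chlorella was the lowest for 4 members and 26.4% of those probe sets, and young control for 1 member and 38.2%.

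The last comparison, old Chlorella with young control, changes age and diet together. Cyp7a1 1438743_at was the only member past 2-fold, at 1.54 (log2; 2.90-fold) higher in old Chlorella, against 15.2% of all 16572 probe sets past 2-fold and 8.32% past it upward. The other Cyp7a1 probe set differed by 0.235, which became -0.23 with arrays shifted to the poly-A controls. The 2 largest decreases were those of Cyp27a1 (-0.981; 1.97-fold) and Abcg5 (-0.955; 1.94-fold), just inside 2-fold. Abcg8, Cyp8b1 and Nr0b2, each past 2-fold by age, differed by -0.813, -0.772 and -0.693. Nr1h4 was at 0.0. Cyp7b1 1421075_s_at, at -0.215, turned to 0.122 with quantile normalized ratios. In all 10 members were lower than in young control, with a median of -0.541, where 54.5% of all probe sets were lower with a median of -0.085. Within the members' range of mean level 61.5% of probe sets were lower, with a median of -0.198.

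The members were then set beside 4 lists of other bile acid and sterol genes, without tests of the lists. None of 19 probe sets for 13 further bile acid synthesis enzymes passed 2-fold in any comparison, where 18.3% of all probe sets did by age, 1.52% by diet and 15.2% for age and diet together. By age 11 were above 0 and 8 below, with a median of 0.223, and by diet the median was 0.094. The sign of the age median depends on the scaling: it ranged from -0.528 to 0.295 over the 6 other scalings, which were applied to the lists after the data were seen. Enzymes of the later steps differed among themselves. Acox2, the peroxisomal oxidase that starts side chain shortening, read 12.22 in young control, 11.31 in old control and 11.62 in old Chlorella. Baat, which joins bile acids to taurine or glycine, was higher by age on both probe sets (0.454 and 0.622, log2). Akr1d1, the 5-beta-reductase of the steroid ring, was higher by 0.315 and 0.417. Slc27a5, which activates bile acids for that conjugation, was lower by age, at -0.712.

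The ratio table held 11 genes for transport of bile acids and bile lipids, of which Slco1a1, Abcc4 and Slc51b had no age comparison. Of 12 probe sets compared by age, 3 were at least 2-fold lower and none was higher, against 8.8% and 9.55% of all probe sets. These were Abcb4, the phospholipid floppase of the canaliculus (-1.12, log2), 1 of 2 probe sets of Slc10a1, the sodium-dependent bile acid uptake carrier (-1.07, the other -0.668), and 1 of 3 probe sets of Slco1b2, an organic anion carrier (-1.06, the others -0.414 and 0.177). Under another scaling Slc10a1 came to -0.714 and Slco1b2 to -0.964, inside 2-fold, while Abcb4 stayed past it in all 6. By diet none of 13 passed 2-fold, with 5 above 0, 8 below and a median of -0.06, which ranged from -0.0874 to 0.23 over the 6 other scalings. Abcb4 was higher by diet, by 0.621. Slco1a1, an organic anion carrier of the sinusoidal membrane, had a ratio for young control alone and entered no comparison. It was singled out after its values were seen: its deposited log2 expression was 11.13 in young control, 6.43 in old control and 4.93 in old Chlorella. Slc51b, a subunit of the basolateral bile acid exporter and a known FXR target, had ratios on the old arrays alone and read 5.60, 8.31 and 7.87 in the same order, a description chosen in the same way.

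The list of receptors and regulators had the most probe sets past 2-fold: 11 of 26 were lower by age by at least 2-fold and none was higher, against a background of 8.8% lower. They read Hnf4a on all 4 of its probe sets (-1.795, -1.49, -1.03 and -1.005), Rxra on both (-1.89 and -1.21) and Fgfr4 on 2 of 3 (-1.85 and -1.17, the third at 0.004). The remaining 3 read Prox1 on both of its probe sets (-1.44 and -1.22) and Ppargc1a on 1 of 4 (-1.32, the others -0.735, -0.664 and -0.271). Prox1 was named after its values were seen. Under another scaling 3 of the 11 came inside 2-fold, Fgfr4 1418596_at at -0.805 and Hnf4a 1427000_at and 1427001_s_at at -0.817 and -0.782, and the other 8 did not. Hnf4a is a nuclear receptor that drives hepatocyte genes, Cyp7a1 and Cyp8b1 among them. Rxra is the partner with which FXR binds DNA. Fgfr4 is the receptor for Fgf15, and Klb, its co-receptor, was at -0.966 by age. Nr5a2, or LRH-1, was lower on 3 probe sets by values between -0.642 and -0.374, and Nr1h3, the oxysterol receptor LXR-alpha that induces Abcg5, Abcg8 and Abca1, differed by 0.076. These 26 probe sets had a median of -0.804 by age and, over 24 probe sets, 0.0805 by diet.

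By diet Rxra gave the only call of that list. Probe set 1425762_a_at read 10.36 in young control, 8.48 in old control and 9.79 in old Chlorella, a diet difference of 1.32 (2.49-fold). The other Rxra probe set read 11.59, 10.38 and 10.70 and differed by 0.324, so the size for this gene was not shared by its probe sets. The 4 Hnf4a probe sets stayed low in old Chlorella, with diet differences between 0.033 and 0.253. Both Prox1 probe sets were higher by diet, by 0.784 and 0.681, inside 2-fold. Of the 24 probe sets of the list compared by diet, 17 were above 0 and 6 below.

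**Figure D4:**
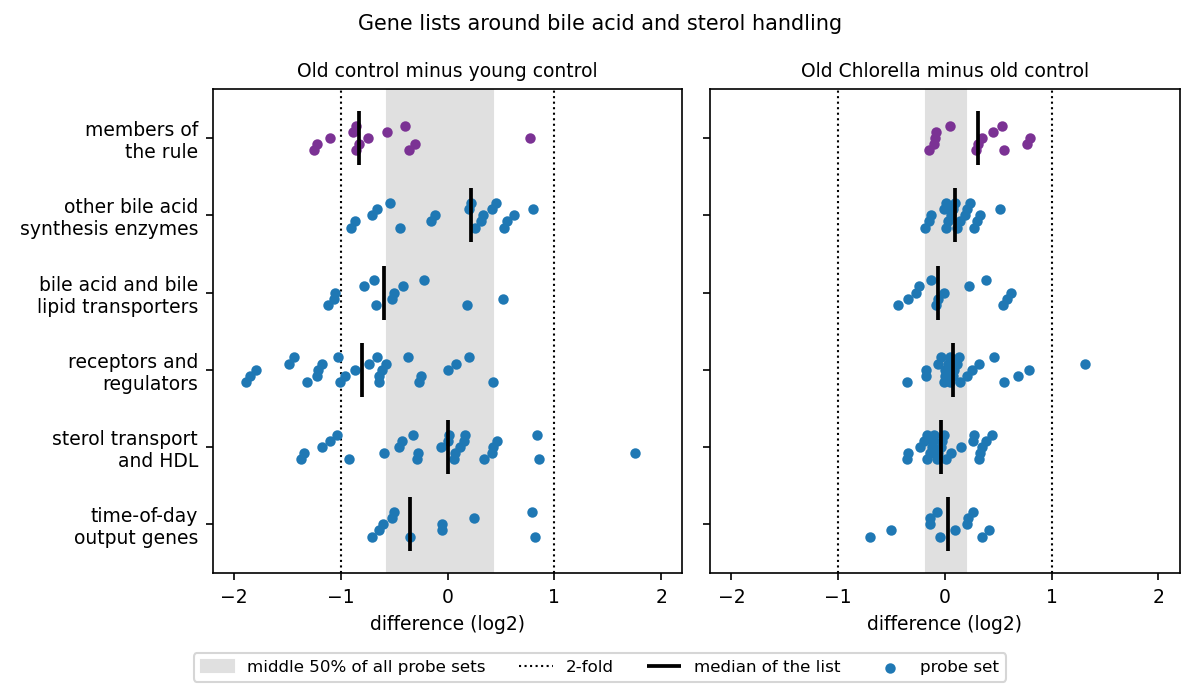
Differences between arrays (log2, horizontal axes) for the 13 members and for each list of further genes (rows), by age on the left and by diet on the right. Each point is 1 probe set, black bars are list medians, the grey band holds the middle 50% of all probe sets, and dotted lines mark 2-fold. By age the receptors and regulators reach furthest left, with 11 of 26 probe sets past 2-fold.

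Of the list for sterol transport and HDL, 5 of 27 probe sets were at least 2-fold lower by age and 1 was higher, where 8.8% and 9.55% of all probe sets were. Scarb1, the HDL receptor through which liver takes up cholesterol esters, was lower on all 3 probe sets (-1.37, -1.18 and -1.10). Lpcat3, a phospholipid acyltransferase induced by LXR, was at -1.35. Npc1, which moves cholesterol out of lysosomes, was at -1.04 and was named after its value was seen. Under another scaling Npc1 came to -0.749, Lpcat3 to -0.917 and Scarb1 1455820_x_at to -0.965, each inside 2-fold. The higher one was a probe set of the oxysterol-binding protein gene Osbpl9 (1.76), at a low level in young control (4.93) and with other Osbpl9 probe sets at 0.0, 0.064 and -0.596. Apoa1, the main protein of HDL, was higher by age on all 4 probe sets by values between 0.345 and 0.462. The list's median was 0 by age (-0.751 to 0.0817 over the other scalings) and -0.04 by diet (-0.052 to 0.249), where none passed 2-fold. For old Chlorella against young control, 6.87% of all probe sets were at least 2-fold lower. Of the lists, Slc10a1 1450261_a_at (-1.15), Hnf4a 1450447_at and 1421983_s_at (-1.66 and -1.23), Ppargc1a 1434099_at (-1.31), Fgfr4 1418596_at (-1.21), Lpcat3 (-1.69) and Scarb1 1437378_x_at (-1.05) were lower by that size. Of these, Ppargc1a, Lpcat3 and Hnf4a 1450447_at stayed past 2-fold in all 6 other scalings.

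Because Cyp7a1 follows the time of day, 9 genes of the daily clock and its output were read beside it. Nr1d1, Per1, Per3 and Bhlhe41 were also on this list but outside the ratio table, so they were not compared. None of 11 probe sets passed 2-fold by age, where 18.3% of all probe sets did, and none of 12 by diet, where 1.52% did. The medians were -0.35 (-1.10 to -0.066 over the other scalings) and 0.0245 (-0.0867 to 0.314). By age 3 of the 11 were above 0 and 8 below. The largest differences by age were 0.819 for Per2, 0.795 for Nr1d2 and -0.708 for Bhlhe40. Between old Chlorella and young control 1 of 11, Clock 1418660_at, was 2-fold lower (-1.11; the other Clock probe sets compared were at -0.141 and -0.3). Dbp, a clock-driven activator of Cyp7a1, had a ratio on 1 array alone and read 6.36 in young control, 6.00 in old control and 6.32 in old Chlorella. Per2 read 7.25, 8.07 and 7.37, a diet difference of -0.7 beside the 0.799 and 0.766 of Cyp7a1. Nfil3, a repressor that opposes Dbp, differed by 0.348 by diet. The part of the clock in the Cyp7a1 values was not tested.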

How the data were processed

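Liver RNA pools of 3 groups were measured on 1 Affymetrix array each. MAS5 is named in the submitters' processing notes; the scaling between arrays and the reason for empty cells were not given in the sources used here. Per the file header, the authors deposited log2 ratios of normalized expression to the median of all samples. Their value table holds log2 expression of 45101 probe sets, as the values show. Old control was matched to the ratio column headed Old, since the remaining title with that word names Chlorella and has a column of its own.

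Differences were taken between 2 arrays over probe sets with both ratios, without 58 control probe sets, and 2-fold (1 on the log2 scale) was counted. With 1 array per group no test was possible. Genes were named from the platform annotation (546 ratio-table probe sets with several symbols and 1776 with none listed stayed unnamed). Every member is reported; of each list, at most 4 probe sets past 2-fold each way are named with the other probe sets of their gene, and further genes for their role (Prox1 and Npc1, named after their values were seen, go beyond this). Members, lists and alternatives were chosen with earlier results of these data known. Alternatives were 6 scalings (array medians at 0, quantile normalized ratios, shifts to either kind of bacterial control, quantile normalized values, and centring on a running median of 1001 probe sets of like level), 1.5-fold, the value table, and filters on missing or low values. Calculations were tested on simulated data, with Python 3.11.15, numpy 2.4.6, pandas 2.3.3 and matplotlib 3.10.9.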

Additional observations from a re-analysis of the deposited data

How the results depend on the processing

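No paired analysis was possible because each group is 1 array, and for the same reason no replicate could be left out. By age the 3 members past 2-fold became 8 with arrays shifted to the hybridization controls and 12 with the poly-A controls, shifts that also moved the median of all probe sets from -0.114 to -0.52 and -0.865. At 1.5-fold there were 9. By diet the count of 0 became 1 with quantile normalized ratios, 2 with the poly-A controls and 2 at 1.5-fold. For old Chlorella against young control the count of 1 became 6 and 8 with the hybridization and poly-A controls, 7 at 1.5-fold, and 2 with quantile normalized values or level-dependent centring, which were added after the data were seen. The other alternatives left these counts within 1.5 times the deposited ones. The split of all 2-fold age calls, 52.0% higher, was 15.5% and 4.78% after the shifts to hybridization and poly-A controls. For these the deposited diet split of 55.4% higher was 80.8% and 90.6%, and for old Chlorella against young control 54.7% became 26.8% and 11.1%. No member past 2-fold changed its direction under any scaling run. The share of all probe sets past 2-fold by age was 11.2% with quantile normalized ratios, 28.2% and 44.7% with the hybridization and poly-A controls, and 37.8% in the value table, which adds dimmer probe sets; by diet it was 1.33% to 5.19% on ratios and 27.4% in the value table. Signal over background is not known for the arrays, so weak probe sets could not be set apart except by their level.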
